A study of Mus musculus with 4 samples.

Results

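Vascular smooth muscle cells were taken from 4 single-cell libraries of mouse heart by a rule on UMI counts, where a UMI is 1 RNA molecule read in a cell. A member had at least 2 UMIs of Myh11, at least 5 UMIs of Acta2 and Tagln together, and none of Ptprc, Cdh5 or Pdgfra, which mark leukocytes, endothelial cells and fibroblasts. Members were thus chosen by measured counts of these genes, and differences in them are given as description only. Of 40438 cell barcodes with at least 500 UMIs and at most 20% mitochondrial UMIs, 163 were members. They were described against 650 pericytes, which had at least 4 UMIs of Kcnj8, Abcc9, Vtn and Rgs5 together, at most 1 of Myh11, and none of the same 3 excluding genes. The study sorted live nucleated cells from digested hearts and deleted TCF21, a transcription factor of cardiac fibroblasts, to ask what it does there. All mice carried Tcf21-MerCreMer, a Cre recombinase at the Tcf21 gene that tamoxifen switches on, and all received tamoxifen. Control hearts had Tcf21-MerCreMer alone and the others Tcf21-MerCreMer:flox. Each genotype was studied without injury and 3 days after myocardial infarction, the loss of heart muscle when its blood supply is cut. The number, age, sex and strain of the animals in a library were not given in the sources used here.

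Smooth muscle cells wrap arteries and larger veins in rings and set vessel width by contracting. Calcium that enters through ion channels activates myosin light chain kinase, myosin then pulls on smooth muscle actin, and nitric oxide relaxes the cell through cyclic GMP. Pericytes sit on capillaries, share a lineage with smooth muscle and normally hold little of its contractile apparatus. After injury or in culture smooth muscle cells can lose contractile proteins, divide and secrete matrix, a state called modulated.

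Each of the 4 groups had 1 library, so no test between groups was possible. All intervals below are 95% intervals that cover counting error only, and the spread between animals is unknown. The libraries held 55710468 to 129704045 UMIs over 9149 to 11541 barcodes. Pairs of libraries shared 16 to 38 barcode sequences, none of them among members. Tcf21 was not lower in the floxed-labelled libraries: in fibroblasts, gated by Pdgfra, it stood at 151.5 against 92.0 CPM without infarction (CPM, the UMIs of a gene scaled to a fixed total per sum) and at 36.9 against 24.6 CPM after it. Which part of Tcf21 is floxed was not given in the sources used here, so a count at the 3′ end of the transcript may not report the deletion. These hearts are therefore called floxed-labelled. In the members Tcf21 stood at 12.1 to 34.1 CPM, from 1, 17, 15 and 8 UMIs in uninjured control, uninjured floxed-labelled, infarcted control and infarcted floxed-labelled hearts. MerCreMer was not detected in any of the 4 sums.

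The rule found 6 members in the uninjured control library, 92 in the uninjured floxed-labelled library, 21 in the infarcted control library and 44 in the infarcted floxed-labelled library. Their shares of all kept barcodes were 0.0671% (exact Clopper-Pearson interval 0.0246 to 0.146), 0.823% (0.664 to 1.01), 0.211% (0.131 to 0.322) and 0.425% (0.309 to 0.570) in the same order. Pericytes numbered 130, 340, 60 and 120. Among both kinds of mural cell together, smooth muscle cells made up 4.41% (1.64 to 9.36) in the uninjured control library. They were 21.3% (17.5 to 25.5), 25.9% (16.8 to 36.9) and 26.8% (20.2 to 34.3) in the other libraries. The uninjured control library thus stood apart in its small number of members, also relative to pericytes from the same digest. The other 3 intervals overlapped. These shares count cells that met the rule, and the name smooth muscle cell is less certain after infarction. With each cell thinned at random to 2000 UMIs, 4 of 6, 76 of 92, 6 of 21 and 25 of 44 members still passed, in the same order. Whether the infarcted members that did not pass are smooth muscle cells was not tested. Cells lost in digestion or sorting and cells absent from the tissue cannot be told apart.

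Values below are from UMIs summed over the members of a library, 29556, 807073, 439716 and 661936 in the order used above, and expressed as CPM. Myh11, the smooth muscle myosin heavy chain (mm10 chr16:14194535-14291372, minus strand), stood at 2030.0, 3919, 562 and 1748 CPM. Acta2, smooth muscle actin (chr19:34241090-34255590, minus strand), stood at 2741, 8003, 9897 and 8604 CPM. Tagln, the actin-binding protein transgelin (chr9:45929619-45936058, minus strand), stood at 2335, 5624, 5906 and 6043 CPM. These 3 genes were part of the rule, so their presence is no finding. Of the markers that the rule did not use, Myl9, the regulatory light chain of myosin (chr2:156775420-156781658, plus strand), stood at 1658, 2880 (2764 to 2999), 1517 and 2120 (2010.1 to 2233) CPM. It was found in 90 of 92 and 43 of 44 members of the floxed-labelled libraries, and in 6 of 6 and 21 of 21 of the control libraries. Cnn1, the actin-binding protein calponin (chr9:22099216-22109630, plus strand), was low everywhere. It had 0 UMIs in the uninjured control library, where 3 UMIs would be 102 CPM, and 130 (106 to 158), 38.7 (22.5 to 61.9) and 65.0 (47.0 to 87.5) CPM in the other sums. Pericytes held 195 to 582 CPM of Myl9, and at most 1.23 CPM of Cnn1.

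**Figure D1:**
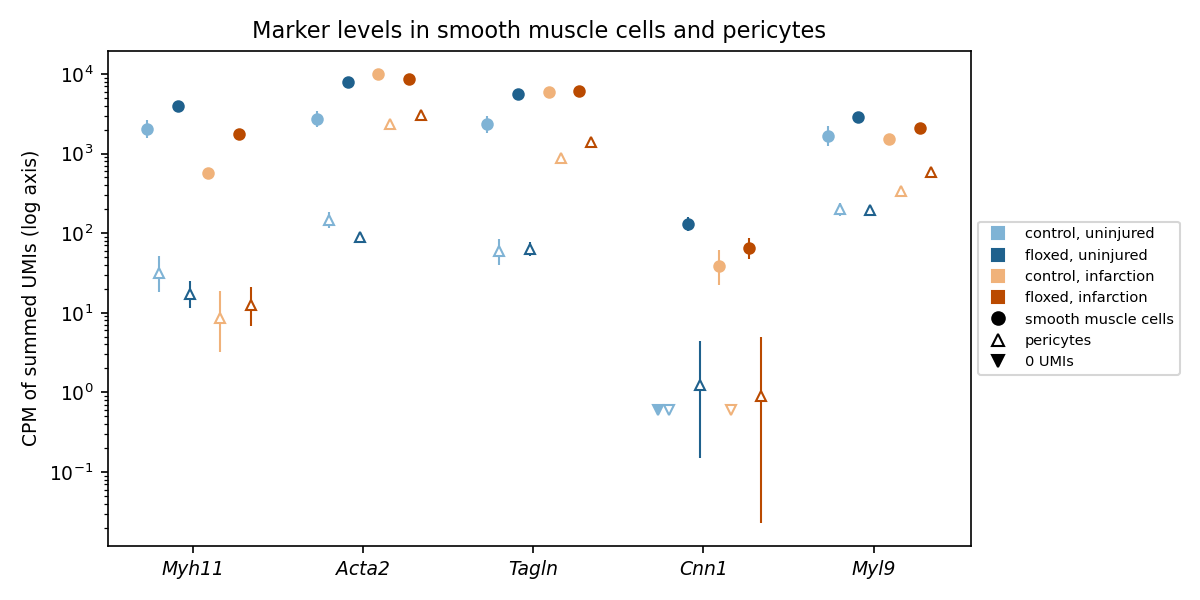
CPM of summed UMIs on a log axis for the 5 marker genes, in smooth muscle cells (filled circles) and pericytes (open triangles) of each library. Bars are exact 95% Poisson intervals, and triangles pointing down stand for sums with 0 UMIs, drawn at an arbitrary height; floxed stands for floxed-labelled. Acta2 in pericytes stands at 146 and 88.7 CPM without infarction and at 2356 and 3087 CPM after it.

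Sequence around these genes is shown because many smooth muscle genes are switched on through the CArG box, a motif bound by serum response factor. Myl9 is the marker outside the rule that has an exact box in the window searched. The bases before its start, from the RefSeq promoter table (GRCm38, chr2:156775214-156775419, plus strand, 206 bases, ending where the annotated transcripts begin), are given with the box in capitals:
Myl9 upstream: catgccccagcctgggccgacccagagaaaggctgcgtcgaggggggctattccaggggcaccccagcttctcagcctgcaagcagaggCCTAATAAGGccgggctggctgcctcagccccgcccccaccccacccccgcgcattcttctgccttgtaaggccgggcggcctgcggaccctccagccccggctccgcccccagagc
The box begins 161 bases before the RefSeq start. Among 32 contractile and cytoskeletal genes of smooth muscle, 28 had an entry in the table, and 4 of these (14.3%) had an exact box on either strand in the 250 bases before a start: Myl9, Myl6, Vcl and Filip1l. Of all 27025 genes in the table, 1.62% had one. Acta2 and Cnn1 had no exact box in their windows, and Myh11 and Tagln had no entry.

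Markers of other cells were low for some types and not for others. Pecam1 of endothelial cells stood at 0, 18.6, 0 and 9.06 CPM, and Myh6 of cardiomyocytes at 0, 3.72, 0 and 0 CPM. The cardiomyocyte genes Actc1 and Tnnt2 were not as low everywhere. Actc1 reached a mean of at least 50 CPM over both infarcted sums, with a log2 ratio of -4.18, floxed-labelled over control. Tnnt2 reached that mean over both uninjured sums. The mesothelial markers Upk3b, Msln, Krt8, Krt18 and Krt19 had 0 UMIs in all 4 sums. Genes listed as fibroblast markers were present, and Col1a1 and Postn were present after infarction in many members. Col1a1 stood at 102, 75.6, 1360.0 and 1196 CPM and reached at least 2 UMIs in 0, 3, 13 and 14 members. Postn stood at 33.8, 90.5, 1119 and 801 CPM and reached at least 2 UMIs in 0, 5, 17 and 25 members. Pericytes of the same libraries also held both genes. With pericytes thinned to 2000 UMIs, Postn was found in 73.4%, 60.6%, 70.7% and 73.5% of them in the same order. Col1a1 was found in 20.2%, 20.5%, 46.6% and 44.2%. Neither gene alone thus tells a fibroblast from a pericyte here. Dcn, a fibroblast proteoglycan, stood at 440, 151, 487 and 40.8 CPM. Of 6 fibroblast markers measured in the floxed-labelled sums, 4 were at least 2-fold higher after infarction and 2 lower, Dcn among the latter. Other signals lay mainly in single cells. In the infarcted control library, 97.2% of the UMIs of the neutrophil gene S100a8 (243 CPM) lay in 1 member. All 203 eGFP UMIs of that sum also lay in 1 member, and so did 77.6% of the Dcn UMIs. In the infarcted floxed-labelled library, 71 of 82 eGFP UMIs lay in 1 member. Fabp4, a fatty acid carrier abundant in capillary endothelium, was present in every sum at 1613 to 2631 CPM. Which cells this RNA came from, and its part in other results, was not tested. Results without members with over 2 UMIs of Pecam1, Lyz2, Cd68, Dcn and Col1a1 together are given below as an alternative. A score for doublets, barcodes holding more than 1 cell, marked 0, 1, 1 and 0 members.

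The members differed across libraries in depth and in Myh11 per cell. Their median depth was 4594, 8056.5, 17887 and 11144 UMIs, so 2 UMIs of Myh11 were a smaller share of a cell's RNA after infarction. Myh11 per cell had a median of 2344 CPM (range 279 to 16588) in the uninjured floxed-labelled library. In the infarcted control library the median was 341 CPM (52.2 to 5737), and in the infarcted floxed-labelled library 910 CPM (83.8 to 11484). The 6 cells of the uninjured control library lay between 414 and 5631 CPM, with a median of 1171. Each cell was therefore also thinned at random to 2000 UMIs and the rule applied again, a check added after the data were seen. Of the members, 4 of 6, 76 of 92, 6 of 21 and 25 of 44 still passed. Those that did not pass have less Myh11 per UMI by the way they were split, a median after infarction of 339 CPM (control) and 226 CPM (floxed-labelled) against 1252 and 4062 CPM, so these values bear on nothing else. Contractile genes outside the rule made up a median of 2.23% and 2.08% of UMIs in the infarcted members that did not pass and 3.25% and 4.36% in those that did.

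**Figure D2:**
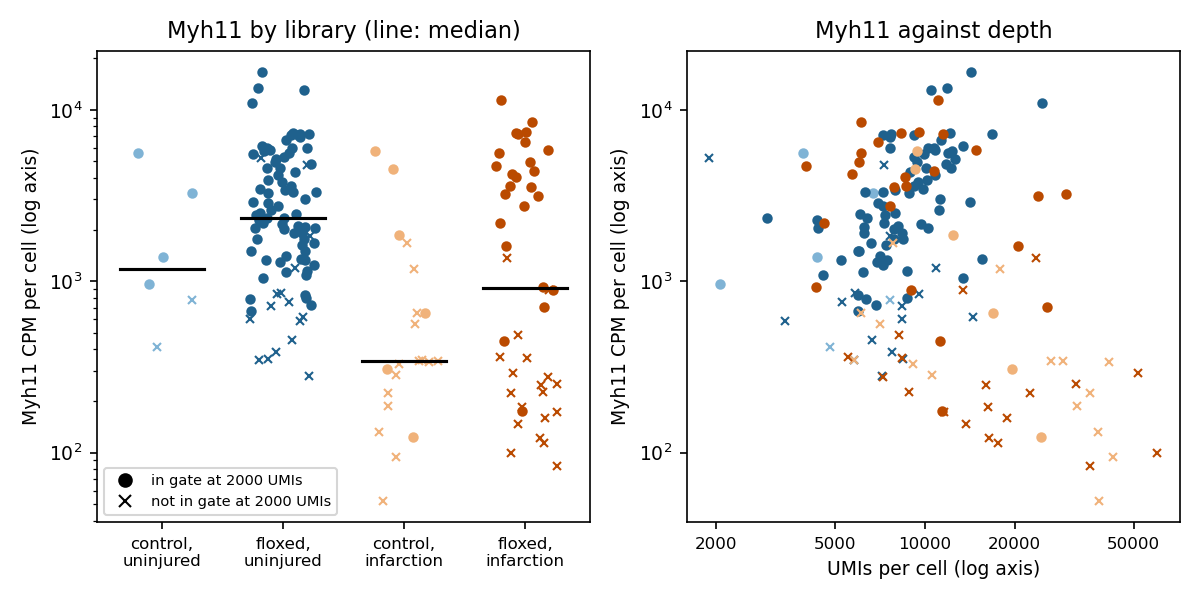
Myh11 CPM of each of the 163 members on a log axis, by library (left, line at the median) and against the UMIs of the cell (right, both axes log, same colours). Circles are members that still pass the rule at 2000 UMIs and crosses are those that do not; after infarction the crosses are mostly deep cells with low Myh11.

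The members just inside and just outside the limit on Myh11 show how sharp the gate is. Members with exactly 2 Myh11 UMIs numbered 2, 3, 2 and 8. Barcodes that met every other condition but had exactly 1 numbered 1, 5, 4 and 10. The median of Acta2 and Tagln together was 10.5, 6, 317.5 and 84.5 UMIs in the former and 26, 15, 61 and 65.5 UMIs in the latter. After infarction cells on both sides of the limit thus held many UMIs of actin and transgelin. The 3 excluding genes removed 9 of 15, 67 of 159, 10 of 31 and 11 of 55 barcodes that met the positive limits, in the uninjured libraries mostly through Cdh5 (8 and 54 barcodes).

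Members also differed from each other in genes the rule did not use. Kcnj8 and Abcc9, the pore and the regulatory subunit of an ATP-sensitive potassium channel and leading genes of heart pericytes, reached at least 2 UMIs together in 4 of 6, 37 of 92, 14 of 21 and 25 of 44 members. In the infarcted floxed-labelled library this held for 8 of the 25 members that passed at 2000 UMIs and for 17 of the 19 that did not. In the uninjured floxed-labelled library it held for 22 of 76 and for 15 of 16. Postn, the matrix protein periostin, reached at least 2 UMIs in the infarcted floxed-labelled library in 9 of 25 that passed and 16 of 19 that did not. The division genes Mki67 and Top2a together reached at least 2 UMIs in 0, 0, 8 and 10 members, 2 of 25 and 8 of 19 in the same split. Pln, phospholamban, which restrains the calcium pump of the sarcoplasmic reticulum, had the opposite distribution. It reached at least 2 UMIs in 1, 40, 0 and 10 members, and in the infarcted floxed-labelled library in 9 of 25 that passed and 1 of 19 that did not. Because the split is on expression of the same cells, these counts are descriptions. They are also not corrected for depth, and after infarction the members that did not pass were deeper in the median. At 2000 UMIs Abcc9 was found in 66.7%, 25.3%, 19.0% and 36.4% of members in the library order, against 66.7%, 44.0%, 66.7% and 59.1% unthinned. Kcnj8 was found in 33.3%, 14.3%, 23.8% and 18.2% at 2000 UMIs, and Postn in 16.7%, 6.59%, 71.4% and 52.3%.

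Rgs5, a regulator of G protein signalling that was part of the pericyte rule, was abundant in both kinds of cell. It stood at 11301, 14357, 3168 and 4670 CPM in smooth muscle cells, and in the uninjured floxed-labelled library single members ranged from 0 to 59286 CPM. Pericytes, which the gate selected partly by this gene, held 11615, 12047, 3699 and 3618 CPM. Only 0, 5, 2 and 2 members had fewer than 4 UMIs of Kcnj8, Abcc9, Vtn and Rgs5 together. The separation from pericytes thus rests on the limit on Myh11, as the pericyte gate sets none on Acta2 or Tagln.

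The contrast with pericytes was described within the 3 libraries that held at least 10 members. Genes entered a comparison at a mean of at least 50 CPM over both sums and at least 30 UMIs in all, and a 2-fold difference is a rule of size, not a test. Of 2546 genes, 50 (1.96%) differed at least 2-fold the same way in all 3 libraries. In smooth muscle cells 28 genes (1.1%) were higher and 22 (0.864%) lower. Both kinds of cell were separated by their own expression, so the genes describe the gates. Taken 1 library at a time, 18% of 3448 genes differed at least 2-fold in the uninjured floxed-labelled library, 7.42% of 3166 in the infarcted control and 5.29% of 3271 in the infarcted floxed-labelled library. In the uninjured control library, with its 6 members, 12.9% of 3047 did. Of the 26 contractile genes measured, 11 were higher in all 3 libraries and none lower, with a median log2 ratio of 1.45 against -0.05 over all genes. Myh11, Acta2 and Tagln, which the rule used, are among the 11, so the count and the median are description only. The contractile list also holds these genes in the comparisons below.

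Several contractile genes outside the rule were among the genes with the highest ratios. Mustn1, a small nuclear protein of the muscle and skeletal system, stood at 1147 against 19.7 CPM in the uninjured floxed-labelled library, a log2 ratio of 5.86 (5.35 to 6.42). In infarcted hearts the values were 237 against 47.7 CPM in the control and 650 against 54.8 CPM in the floxed-labelled library. Lmod1, leiomodin, which starts actin filaments, stood at 735 against 25.9, 337 against 83.8 and 349 against 32.4 CPM in the same order. With cells thinned to 2000 UMIs, Lmod1 was found in 70.3% of smooth muscle cells and 3.64% of pericytes of the uninjured floxed-labelled library, with 0.129% of endothelial cells as the background. Over the same cells the unthinned shares were 94.5%, 8.28% and 0.442%, at median depths of 8056.5, 4730.0 and 5351 UMIs, and thinning left out 1, 38 and 169 shallower cells. Log2 ratios of Tpm1 (tropomyosin) were 3.14, 1.39 and 1.59, and those of Mylk, the light chain kinase, were 2.50, 1.43 and 1.76. Csrp1, a LIM protein of actin bundles, had 3.70, 1.77 and 1.31. Myl9 had 3.88, 2.15 and 1.86. In each of these genes the highest of the 3 ratios was in the uninjured library.

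Outside the contractile list, Map3k7cl, a short relative of the kinase TAK1, had a higher ratio in the uninjured library than any contractile gene outside the rule that is named here, and was nearly absent from uninjured pericytes. It stood at 307 against 1.85 CPM in the uninjured floxed-labelled library, a log2 ratio of 7.38 (5.81 to 9.66). In infarcted hearts the values were 127 against 10.1 and 116 against 21.6 CPM. Palld, palladin of actin bundles, stood at 393 against 5.55 CPM without infarction, with log2 ratios of 6.15, 1.94 and 2.04. Cryab, a small heat shock protein, had 3.16, 2.05 and 2.19. Dstn, destrin, which takes actin filaments apart, had 2.75, 1.13 and 1.70, and Arhgef7, an exchange factor for small GTPases, had 2.77, 1.89 and 1.78. Of 9 ion channel and calcium handling genes measured, 2 were higher in all 3 libraries and none lower (median 0.56), and the caveolar genes Cav1 and Cavin1 had the highest ratios.

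**Figure D3:**
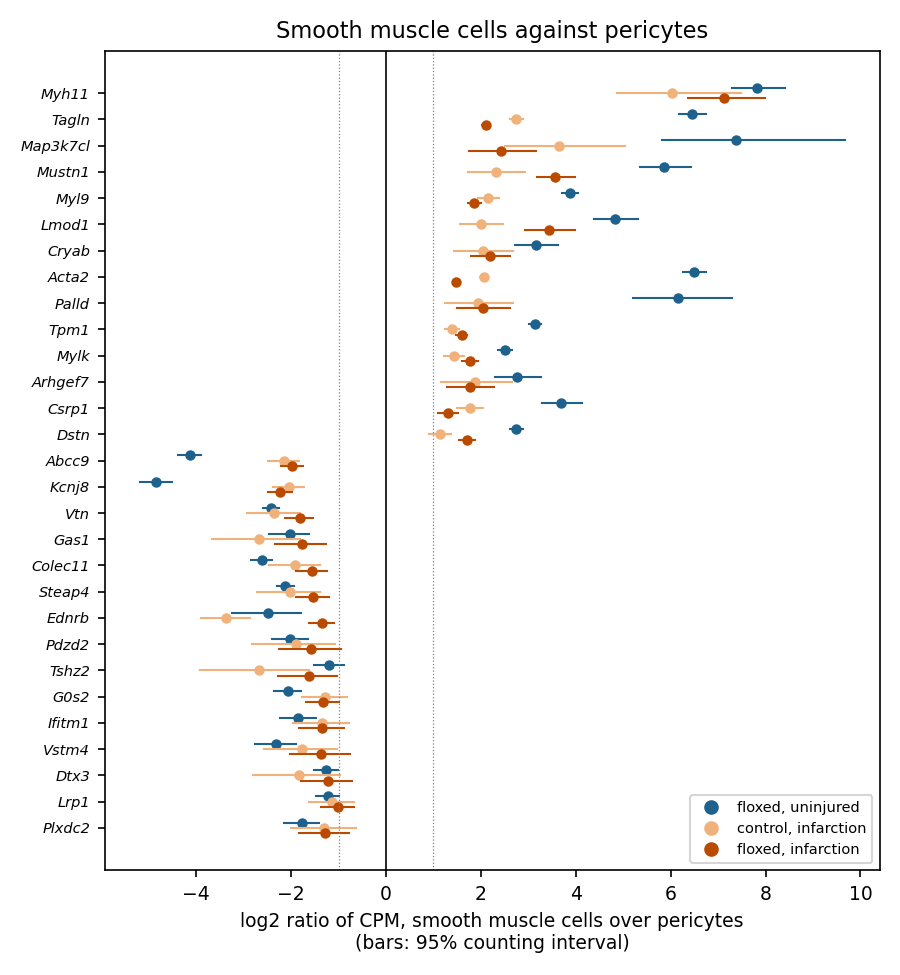
Log2 ratios of CPM, smooth muscle cells over pericytes, with 95% counting intervals, in the 3 libraries with at least 10 members, for the genes that stand farthest from 0 by their least certain library, 14 higher and 15 lower. Dotted lines mark 2-fold. For most of the genes higher in smooth muscle cells the uninjured library lies farther to the right than both infarcted ones.

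Pericyte genes were lower in smooth muscle cells, but not by the same margin in each library. Kcnj8 stood at 92.9 against 2659 CPM without infarction and at 228 against 1066 CPM after it in the floxed-labelled hearts, with log2 ratios of -4.84 and -2.22. Of 13 pericyte markers measured, 5 were lower in all 3 libraries and none higher, with a median of -0.57. Kcnj8, Abcc9 and Vtn, by which the pericytes were selected, are among the 5, so the count and the median are description only. Colec11 and Steap4 are the ones outside the rule. Ednrb, the endothelin receptor B, stood at 23.5 against 131, 77.3 against 794 and 233 against 593 CPM in the uninjured floxed-labelled, infarcted control and infarcted floxed-labelled libraries. Steap4, a metalloreductase, had log2 ratios of -2.12, -2.03 and -1.54, and Colec11, a soluble lectin, had -2.62, -1.91 and -1.56. Gas1, a membrane co-receptor of hedgehog signalling, had -2.03, -2.68 and -1.78. Elastic fibre and fibrillar matrix genes (15 measured, median -0.66) and basement membrane genes (15 measured, median -0.55) had no member past 2-fold in all 3 libraries. Neither had the 7 Notch genes (median -0.16), the 13 transcription factors of mural cells (median -0.20) nor the 36 nuclear genes of the respiratory chain (median 0.32).

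Infarction was compared first in the floxed-labelled hearts, 44 against 92 members. Of 3254 genes, 737 (22.6%) differed at least 2-fold, 388 (11.9%) higher after infarction and 349 (10.7%) lower. In pericytes of the same libraries 728 of 3526 genes (20.6%) differed, 359 (10.2%) higher and 369 (10.5%) lower. Over all members most of the fibrillar matrix, modulated-state, secretory and division genes measured were higher after infarction, and most ion channel genes lower. Many of these calls were absent from narrower sets of members. The median log2 ratio over all genes was 0.05. As members after infarction were deeper and held more Col1a1 and Postn, lists and genes are followed through 3 narrower sets. The first holds the members that pass at 2000 UMIs (25 against 76, 470 of 3169 genes past 2-fold). The second leaves out members with at least 2 UMIs of Kcnj8 and Abcc9 (19 against 55, 387 of 3107 genes), and the third those with over 2 UMIs of Pecam1, Lyz2, Cd68, Dcn and Col1a1 together (25 against 69, 435 of 3119 genes). The first and second were added after the data were seen. Values for the narrower sets are given in this order.

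The contractile list gave 1 gene higher and 10 lower of 32, with a median of -0.43. Each narrower set gave 1 higher, and they gave 1, 0 and 0 lower, with medians of 0.06, -0.03 and -0.02. The first set is chosen by Myh11, Acta2 and Tagln, which are on this list, so its values here are description only. In pericytes 12 of 23 were higher and 1 lower (median 1.10). Acta2 in smooth muscle cells stood at 8604 against 8003 CPM, a log2 ratio of 0.10, and in pericytes at 3087 against 88.7 CPM, a log2 ratio of 5.12 (4.88 to 5.37). Tagln in pericytes stood at 1406 against 64.1 CPM. Myh11 stood at 12.6 against 17.3 CPM in pericytes, which the gate holds at 1 UMI or fewer per cell. Smooth muscle Myl9 was 1.36-fold lower, at 2120 against 2880 CPM, while in pericytes it was 2.98-fold higher, at 582 against 195 CPM. The smooth muscle ratio of Myl9 was 0.09, 0.05 and 0.08 in the narrower sets. The contractile gap between the 2 gates was thus narrower after infarction for Acta2, Tagln and Myl9. For Acta2 and Tagln, which the smooth muscle rule used and the pericyte gate did not limit, this is description only. Actg2, gamma actin of smooth muscle, was the contractile gene past 2-fold upwards, at 234 against 45.8 CPM, but its ratio of 2.35 became 3.33, 2.37 and -1.33. Pln was the lowest by ratio, at 147 against 529 CPM, a log2 ratio of -1.85 (-2.19 to -1.53), followed by Ppp1r12b, a subunit of myosin phosphatase, at 139 against 400.2 CPM, and the integrin subunit Itga8, at 48.3 against 126 CPM. Pln had -1.13, -0.64 and -0.93 in the narrower sets, and Ppp1r12b and Itga8 stayed within 2-fold in all 3.

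Ion channel and calcium handling genes had 12 of 16 members lower and none higher, with a median of -1.25. In the narrower sets 3 of 18, 2 of 18 and 7 of 19 were lower and 2, 1 and 1 higher, with medians of -0.51, -0.40 and -0.59. Kcnab1, a subunit of voltage-gated potassium channels, stood at 66.5 against 302 CPM, and Kcna5, a potassium channel pore, at 33.2 against 116 CPM. Kcnab1 had -1.49, -1.10 and -1.12 in the narrower sets and Kcna5 -0.85, -0.47 and -1.01. In pericytes 1 of 12 was higher and 3 lower. Kcnj2, the inward rectifier potassium channel, stood at 7.55 against 105 CPM, a log2 ratio of -3.80 (-5.46 to -2.52), and had -2.65, -2.13 and -3.07 in the narrower sets.

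Of 16 receptor and signalling genes of vessel tone, 2 were higher and 5 lower. Gucy1a1, a subunit of the nitric oxide receptor, stood at 458 against 1980.0 CPM, a log2 ratio of -2.11 (-2.29 to -1.93), and in pericytes at 352 against 1184 CPM. Pde3a, a phosphodiesterase of cyclic nucleotides, stood at 236 against 622 CPM, and Rgs7bp, which anchors regulators of G protein signalling, at 61.9 against 183 CPM. Ednrb stood at 233 against 23.5 CPM, a log2 ratio of 3.30 (2.61 to 4.08), and Rgs16 at 99.7 against 8.67 CPM. Both were also higher in pericytes, at 593 against 131 CPM and 155 against 3.70 CPM. In the narrower sets Gucy1a1 had -1.62, -1.19 and -1.56, Ednrb 2.76, 0.58 and 2.89, and Rgs16 3.55, 1.48 and 1.73. Pde3a and Rgs7bp stayed within 2-fold there. The value 1.48 of Rgs16 equals the ratio of the totals alone, which a gene also gets with both sums at or below the floor of 3 UMIs. Of 9 Notch genes 4 were lower and none higher, with Hes1, a Notch target, at 215 against 643 CPM and Hey2 at 37.8 against 119 CPM. Of 17 transcription factors of mural cells 2 were higher and 8 lower. Myocd, myocardin, the cofactor that drives contractile genes through serum response factor, stood at 25.7 against 92.9 CPM, and Mef2c at 364 against 1186 CPM. In the narrower sets the vessel tone list had 1, 0 and 1 higher and 1 lower in each, the Notch list 0, 0 and 1 lower, and the transcription factors 1, 0 and 0 higher and 1, 1 and 4 lower. Mef2c had -1.40, -1.18 and -1.13, Myocd -0.82, -0.72 and -1.05, Hes1 -0.75, -0.30 and -0.89, and Hey2 -0.84, -0.55 and -1.05. Tbx20 stood at 89.1 against 42.1 CPM over all members, but its ratio of 1.08 became -0.79, -1.19 and -1.27.

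Genes of modulated smooth muscle cells had 13 of 15 members higher and none lower, with a median of 2.56. The narrower sets had 10 of 13, 6 of 12 and 6 of 11 higher and none lower, with medians of 1.65, 0.93 and 1.73. The same list in pericytes had 16 of 18 higher and 1 lower (median 1.89). Timp1, an inhibitor of matrix proteases, had 0 UMIs in the 92 members of the uninjured library and 238 in the infarcted one, at 360 CPM. Against a floor of 3 UMIs in the uninjured sum this is a log2 ratio of at least 6.60, and 60.9% of those UMIs lay in 1 member. The bound is 4.60, 3.98 and 4.41 in the narrower sets. Tubb6, a beta tubulin, stood at 218 against 6.20 CPM, a log2 ratio of 5.13 (3.88 to 6.78), with its UMIs spread over 59.1% of members, and of 5.23, 4.21 and 3.24 in the narrower sets. In pericytes Timp1 stood at 546 against 3.08 CPM and Tubb6 at 144 against 17.3 CPM.

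Elastic fibre and fibrillar matrix genes had 13 of 18 members higher and 3 lower (median 1.65). The narrower sets had 11 of 17, 4 of 15 and 6 of 13 higher and 2, 2 and 1 lower, with medians of 1.13, -0.06 and 0.95. Col1a1, a chain of type I collagen, stood at 1196 against 75.6 CPM, a log2 ratio of 3.98 (3.61 to 4.38), but single members held 57.3% of its UMIs after infarction and 52.5% without it. In the narrower sets, the third of which is chosen partly by Col1a1 itself, its ratio was 1.56, -0.22 and -0.23. Col6a3 stood at 583 against 45.8 CPM, Col5a1 at 192 against 11.2 CPM and Fn1, fibronectin, at 283 against 34.7 CPM. Eln, elastin, went the other way at 24.2 against 91.7 CPM, and so did Ltbp1, which stores TGF-beta in the matrix, at 15.1 against 88.0 CPM. Col6a3 had 1.93, -1.28 and 2.29 in the narrower sets, Col5a1 2.33, 0.48 and 2.58, Fn1 2.33, 1.48 and 3.11, Eln -0.84, -0.65 and -0.37 and Ltbp1 -1.33, -1.30 and -1.75. The value 1.48 of Fn1 equals the ratio of the totals alone, which a gene also gets with both sums at or below the floor of 3 UMIs. Of 18 basement membrane genes 7 were higher and 5 lower, with Col4a1 at 1882 against 517 CPM and Lamb1 at 116 against 17.3 CPM. The narrower sets had 3 of 15, 0 of 14 and 0 of 14 higher and none lower. Col4a1 then had 1.47, 0.69 and 0.84 and Lamb1 1.68, -0.11 and 2.87.

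Division genes had 9 of 10 measured members higher, with a median of 2.37. They were 3 of 7, 1 of 5 and 2 of 5 in the narrower sets, with medians of 0.55, 0.60 and 0.38. Mki67, a protein of dividing nuclei, stood at 151 against 3.72 CPM and Top2a, which untangles DNA, at 101 against 1.24 CPM. The ratio of Mki67 was 5.34 over all members and 4.74, 2.70 and 0.99 in the narrower sets, and that of Top2a 4.77, then 1.33, 1.48 and 1.73. For both genes the uninjured sums lie at or below the floor of 3 UMIs used in ratios. So do the infarcted sums for Mki67 in the third set and for Top2a in the first and second. The values 0.99, 1.33 and 1.48 thus reflect only the totals of the sums and give no direction. Among members with at least 2000 UMIs, Mki67 was found in 20.5% after infarction and 3.30% without it. At 2000 UMIs it was found in 11.4% (3.79 to 24.6) and 1.10% (0.0278 to 5.97), with 5.30% and 0.589% of endothelial cells. At this depth the intervals of the smooth muscle shares overlap.

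Secretory pathway genes had 14 of 19 members higher and none lower, with a median of 1.21 (0.80 in pericytes). In the narrower sets 6, 4 and 7 of 18 were higher and none lower, with medians of 0.88, 0.60 and 0.75. The list was led by Sdf2l1, Manf and Pdia6 of the endoplasmic reticulum at 96.7 against 7.43, 414 against 79.3 and 428 against 88.0 CPM. Sdf2l1 had 3.44, 2.48 and 3.32 in the narrower sets, Manf 1.86, 1.06 and 1.34 and Pdia6 1.92, 0.94 and 1.32. Translation genes had 7 of 18 higher (median 0.84), and 3 in each narrower set, and glycolysis and hypoxia genes 6 of 15 (median 0.81), with Ldha at 565 against 222 CPM. Cytokine, chemokine and acute phase genes had 7 higher and 4 lower of 14. Ccl2, which draws monocytes, stood at 276 against 13.6 CPM, with 49.7% of its UMIs in 1 member, and Cxcl12 at 81.6 against 307 CPM. The ratio of Ccl2 was 4.34 and, without the deepest member of each library, 3.44. It was 4.60, 2.89 and 3.80 in the narrower sets. Of 36 respiratory chain genes 2 were lower and none higher.

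Among the other genes lowest after infarction, Rasd1, a small GTPase induced by glucocorticoids, stood at 166 against 989 CPM and Cd36, a fatty acid transporter, at 87.6 against 580 CPM. Olfr560, an olfactory receptor family gene, stood at 15.1 against 131 CPM, a log2 ratio of -3.12 (-4.22 to -2.18). Atp2a3, a calcium pump, Sntb1, a syntrophin, Ecm2 and Mamdc2 had ratios of -3.11, -2.80, -3.45 and -3.06, and the gene models Gm8797 and Gm13861 had -3.57 and -2.88. Ecm2, Atp2a3 and Gm8797 were lower in pericytes too, with -2.44, -2.49 and -4.09. Mt2, a metallothionein, was higher at 133 against 3.72 CPM, as in pericytes at 548 against 18.5 CPM. Stmn1, which destabilises microtubules, stood at 210 against 8.67 CPM and Fam111a at 119 against 1.24 CPM. These genes kept their direction in the narrower sets, most with smaller ratios, except that Fam111a had no measured direction in the second set. Rasd1 had -1.71, -1.31 and -1.90, Cd36 -2.09, -1.83 and -2.22, and Olfr560 -1.92, -1.46 and -1.99. Ecm2 had -2.30, -2.17 and -2.80, Atp2a3 -2.45, -2.27 and -2.33, Sntb1 -2.03, -1.49 and -2.14, and Mamdc2 -2.37, -1.78 and -1.89. Gm8797 had -2.58, -2.34 and -3.02 and Gm13861 -1.74, -1.33 and -2.09. Mt2 had 5.23, 4.80 and 5.02, Stmn1 2.84, 2.48 and 2.41, and Fam111a 2.33, 1.48 and 3.11. The value 1.48 of Fam111a comes from sums that both lie at or below the floor of 3 UMIs and reflects only their totals.

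**Figure D4:**
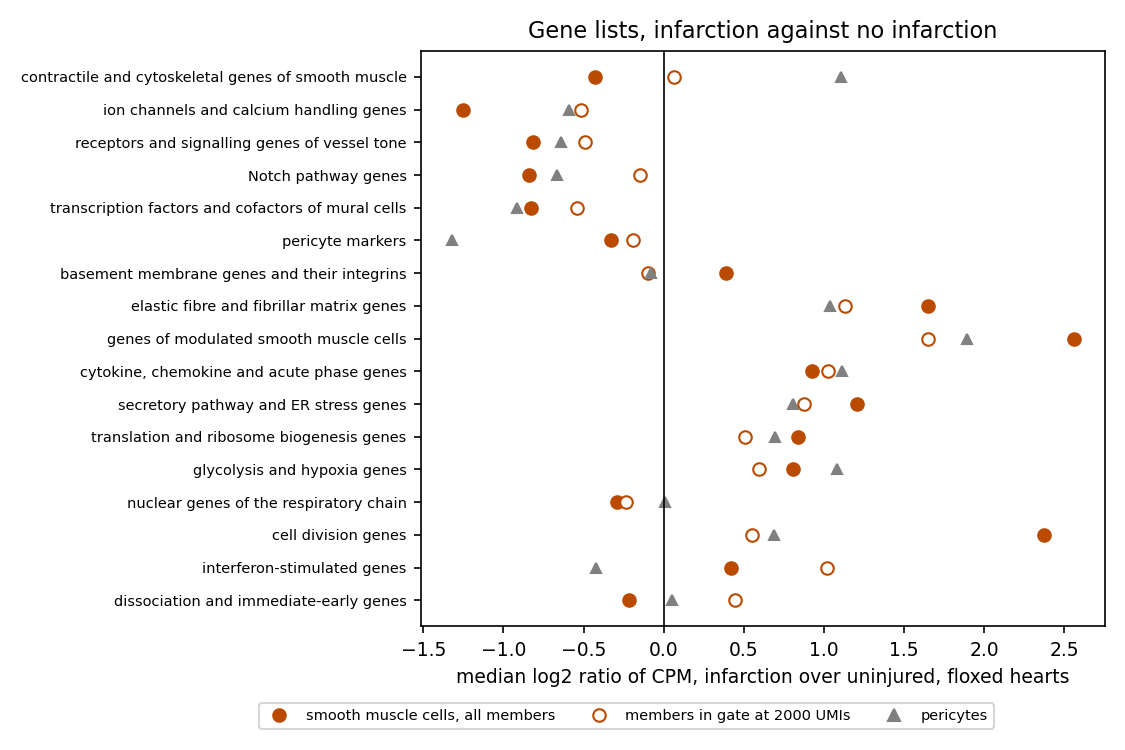
Median log2 ratio of CPM, infarcted over uninjured floxed-labelled hearts, for 17 gene lists in all members (filled circles), in members that pass the rule at 2000 UMIs (open circles) and in pericytes (triangles). The contractile list lies at -0.43, 0.06 and 1.10, and the open circles are chosen by genes of that list. The modulated list is far to the right in all 3.

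The genotypes were compared after infarction over 44 floxed-labelled and 21 control members. Of 3162 genes, 190 (6.01%) differed at least 2-fold, 122 (3.86%) higher and 68 (2.15%) lower in the floxed-labelled library. In pericytes 55 of 3284 (1.67%) differed, 30 (0.914%) higher and 25 (0.761%) lower. Contractile, ion channel and vessel tone genes past 2-fold in smooth muscle cells were higher in the floxed-labelled library except Rgs16, and the modulated-state genes past it were lower. Most contractile, vessel tone and modulated-state genes lay within 2-fold. The share of members that pass at 2000 UMIs also differed, 25 of 44 against 6 of 21, as did the median depth, 11144 against 17887 UMIs, and their part in this result was not tested. With 6 control members left at 2000 UMIs, no single-gene value is given for that setting, and 324 of 1994 genes differed.

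Of 31 contractile genes, 7 were higher in the floxed-labelled library and none lower, the median being 0.28 against -0.01 over all genes. In pericytes none was higher and 1 of 25 lower. Pln stood at 147 against 4.55 CPM, from 97 UMIs in 13 members against 2 UMIs in 2, a log2 ratio of 4.42 against the floor of 3 UMIs with a counting interval of 3.12 to 8.08. At 2000 UMIs Pln was found in 20.5% (9.80 to 35.3) of floxed-labelled and 4.76% (0.120 to 23.8) of control members, and these intervals overlap. In endothelial cells, as background, it was found in 1.84% and 1.12%. Unthinned, the shares were 29.5% and 9.52% of members and 4.61% and 2.23% of endothelial cells. Sncg, gamma synuclein, stood at 678 against 148 CPM, a log2 ratio of 2.20 (1.82 to 2.60). Myh11, which the rule used, stood at 1748 against 562 CPM. Acta2, Tagln and Myl9 had ratios of -0.20, 0.03 and 0.48, and Cnn1 of 0.75 (-0.09 to 1.65).

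Of 12 ion channel and calcium handling genes 6 were higher and none lower, with a median of 1.02 (0.33 in pericytes, where none of 12 passed 2-fold). Cav1, caveolin 1, stood at 264 against 88.7 CPM, and Atp2b4, a calcium pump of the cell membrane, at 133 against 43.2 CPM. Of 15 vessel tone genes 6 were higher and 1 lower. Ednrb stood at 233 against 77.3 CPM in smooth muscle cells and at 593 against 794 CPM in pericytes, and Rgs16 at 99.7 against 248 CPM in smooth muscle cells. Olfr558, an olfactory receptor family gene known from smooth muscle, stood at 372 against 84.1 CPM. Nrip2 stood at 127 against 15.9 CPM and Tbx2, a T-box repressor, at 165 against 29.6 CPM. Sorbs2, an adaptor of the actin cytoskeleton, Tesc, Bcas3 and Rasd1 had ratios of 3.10, 2.55, 2.47 and 2.49, and Rasd1 had 1.60 with members of at most 10% mitochondrial UMIs. Of 8 Notch genes 2 were higher and none lower, with Hes1 at 215 against 77.3 CPM.

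Modulated-state genes had 5 of 19 members lower in the floxed-labelled library and none higher, with a median of -0.80. In pericytes 3 were higher and 2 lower of 19, with a median of -0.08. Thbs1, thrombospondin 1, stood at 255 against 837 CPM, a log2 ratio of -1.71 (-1.98 to -1.45), and was also lower in pericytes at 215 against 503 CPM. Anxa1, annexin A1, stood at 748 against 1890 CPM and S100a10, which binds annexins, at 144 against 409 CPM. Ankrd1, a stretch-induced nuclear cofactor, stood at 34.7 against 232 CPM, a ratio of -2.74 that was -5.57 under stricter limits on Myh11 and on Acta2 and Tagln, and Fhl1, a LIM protein, at 78.6 against 248 CPM. Birc5, survivin, Stbd1 and BC004004 had ratios of -2.08, -2.14 and -2.18. Dcn had -3.58, with most of its control UMIs in 1 member. Secretory pathway genes (19 measured, median -0.50) and respiratory chain genes (36 measured, median 0.21) had 0 and 1 members past 2-fold. The 21 division genes had 2 higher and 2 lower.

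Comparisons with the uninjured control library rest on 6 members and 29556 UMIs, where 3 UMIs are 102 CPM, so single genes other than markers are not named. The floor of 3 UMIs raises any gene with fewer in this sum to 102 CPM. This lowers the ratio of the other library over it. The counts each way and the medians in smooth muscle cells below therefore depend partly on the floor and are not read as shifts. Between genotypes without infarction, 1000 of 3200 genes (31.2%) differed at least 2-fold, 195 (6.09%) higher and 805 (25.2%) lower in the floxed-labelled library, with a median of -0.45. In pericytes, with 340 against 130 cells, 74 of 3706 genes (2%) did, 45 (1.21%) higher and 29 (0.783%) lower. Acta2 had a log2 ratio of 1.55 (1.23 to 1.88), Tagln of 1.27 (0.93 to 1.63) and Myh11 of 0.95 (0.58 to 1.34), which the rule used, and Myl9 of 0.80 (0.39 to 1.24). The contractile list had 12 of 31 genes higher and none lower. Between infarcted and uninjured control hearts, 766 of 2418 genes (31.7%) differed, 381 (15.8%) higher and 385 (15.9%) lower. In control pericytes 1176 of 3562 genes (33%) differed, 516 (14.5%) higher and 660 (18.5%) lower. The contractile list had 8 higher and 7 lower of 29, the modulated list 12 higher and 1 lower of 17, the vessel tone list 1 higher and 9 lower of 13, and the Notch list 5 lower of 5. In pericytes Acta2 stood at 2356 against 146 CPM and Tagln at 878 against 59.1 CPM. The infarction comparisons and the genotype comparisons share libraries, so they are not independent of each other.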

How the data were processed

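Single-cell 3′ libraries of sorted interstitial cells from mouse hearts in 4 groups were processed with Cell Ranger 5.0.1 on mm10, per the submitters' processing notes. The authors deposited UMI counts that are not normalized, for barcodes already selected. Members, pericytes and other gated cells were found by limits on these counts. The rule and the gene lists were chosen with earlier results of these data known. UMIs were summed per library and gate, and log2 ratios of CPM were taken with a floor of 3 UMIs per sum. Intervals are exact Clopper-Pearson (ratios, conditional on both counts, and shares) or Poisson (CPM). No test was run, since each group has 1 library. Between libraries, the 10 genes each way with the interval bound farthest from 0 were named among those found in 20% of members and not marked as free RNA (under 0.1 of the level in another gated class). Against pericytes the 15 each way were named, with up to 3 each way per list and the 5 markers. Some genes that met these rules are not reported here. Mitochondrial and ribosomal protein genes, Xist and Y-linked genes were not named. Possible doublets were scored and removed only as an alternative. The calculation was tested on simulated data. Python 3.11.15, numpy 2.4.6 and scipy 1.17.1 were used.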

Additional observations from a re-analysis of the deposited data

How the results depend on the processing

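No paired analysis was possible because every condition was sequenced as 1 library, and leaving out a replicate was not possible for the same reason. Rescaling by the median of ratios left the 286 list medians and gene ratios recomputed within their intervals or near their main values.

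Removing members with at least 4 UMIs of Kcnj8, Abcc9, Vtn and Rgs5 left shares of 0%, 0.0447%, 0.0201% and 0.0193% and 137 genes for infarction in floxed-labelled hearts. Removing members with over 2 UMIs of Pecam1, Lyz2, Cd68, Dcn and Col1a1 gave shares of 0.617%, 0.0804% and 0.241% in the last 3 libraries and counts of 212 and 435 genes for infarction (control, floxed-labelled) and 101 against pericytes. It reversed Col1a1 (-0.23), which helped to choose this set, and Actg2 (-1.33), Bst2 (-0.12), Flt1 (-1.23) and Tbx20 (-1.27) for infarction in floxed-labelled hearts. Ccl11 changed sign to 0.99 there. This value equals the ratio of the totals alone, which a gene also gets with both sums at or below the floor of 3 UMIs. With no minimum CPM the counts were 5267 and 1296 for genotype (without, after infarction), 3698 and 2906 for infarction and 161 against pericytes, and the fibroblast median for infarction was -1.62. In this setting a gene with few UMIs can pass 2-fold through the floor of 3 UMIs alone. That holds most for 5267 and 3698, which involve the small uninjured control sum. The number of genes tested differs between settings, so the counts in this section are not shares. The mean of CPM per cell gave 78 genes against pericytes and a Cnn1 ratio of 0.069 for infarction. With possible doublets removed, Col1a1 and Col6a3 had 5.03 and 4.53 for infarction, and S100a8 had 0.015 between genotypes after infarction. With at most 10% mitochondrial UMIs, Rasd1 and Gm13861 had -3.48 and -4.42 for infarction.

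The other 3 settings were added after the data were seen. Members that pass at 2000 UMIs gave shares of 0.0603% and 0.241% after infarction and counts of 324 (genotype after infarction), 260 and 470 (infarction) and 95 (pericytes). Ccl11 (1.65) and Tbx20 (-0.79) reversed. Removing members with at least 2 UMIs of Kcnj8 and Abcc9 gave shares of 0.0224%, 0.492%, 0.0703% and 0.183% and counts of 494, 209, 387 and 122. It reversed Col1a1 (-0.22), Col3a1 (-0.85), Col6a3 (-1.28), Lamb1 (-0.11), Ccl11 (0.80), Isg15 (-0.25), Tbx20 (-1.19) and the fibroblast (-0.34) and elastic fibre (-0.060) medians for infarction in floxed-labelled hearts. Leaving out the deepest member of each library moved no count past 1.5 times. The causes were not tested. Depth limits the uninjured control library most.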
